A study of Mauremys reevesii with 3 samples.

Results

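The miRNAs miR-23, miR-27 and miR-24 were followed in 3 small RNA libraries of Mauremys reevesii, the Chinese pond turtle, whose sex is set by the temperature at which the egg develops, with males prevailing after cool and females after warm incubation. Members were all rows of the deposited table named miR-23, miR-27 or miR-24 with any letter, copy number or arm suffix, which gave 41 of 1743 rows. They comprised 13 rows of miR-23, 14 of miR-27 and 14 of miR-24. Eggs were kept at 26, 29 or 32 °C, and adrenal-kidney-gonad complexes, the block of tissue in which the embryonic gonad lies beside kidney and adrenal, were collected at Greenbaum stage 16, around the onset of temperature sensitivity in the gonad. The RNAs of 3 embryonic samples went into a common pool before library preparation, so each temperature had 1 library. No genetic manipulation or drug was labelled, and temperature was the only labelled difference. Every difference below lacks a replicate check and no p-values are given. The columns summed to 9348882, 9624436 and 9613861 counts at 26, 29 and 32 °C. With near-identical rows counted once the totals were 2969285, 3033734 and 2989977, so the column sums were 3.15, 3.17 and 3.22 times as large. Levels below were scaled by the column sums. Intervals are 95% intervals that cover counting error only, and reads amplified without molecular identifiers are not independent molecules.

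A microRNA hairpin gives a mature strand from its 5′ arm (5p) and another from its 3′ arm (3p), and the strand loaded into Argonaute pairs with messenger RNAs mainly through its seed, bases 2 to 8. In mammals miR-23, miR-27 and miR-24 are cut from shared primary transcripts of a pair of paralogous clusters, miR-23a with miR-27a and miR-24-2, and miR-23b with miR-27b and miR-24-1. The mature miR-24-3p of both mammalian clusters has the same sequence, so only its 5p arm tells the copies apart. These miRNAs are best known from endothelium, where the mammalian clusters act in vessel growth. In human adrenocortical cells miR-24 represses the aldosterone and cortisol enzymes CYP11B2 and CYP11B1, and in mammalian fat cell precursors miR-27 represses PPARG.

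The sequences that define the 3 miRNAs are shown first, with the seed in capitals, since the seed separates families that their cluster joins.

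mmu-miR-23b-3p: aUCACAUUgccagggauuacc

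hsa-miR-23a-3p: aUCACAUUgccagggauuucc

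mmu-miR-27b-3p: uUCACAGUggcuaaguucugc

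hsa-miR-27a-3p: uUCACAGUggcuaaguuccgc

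hsa-miR-24-3p: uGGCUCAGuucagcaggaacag

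mmu-miR-23b-5p: gGGUUCCUggcaugcugauuu

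mmu-miR-27b-5p: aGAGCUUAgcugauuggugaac

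chi-miR-24-5p: gUGCCUACugagcugauauc

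The species prefix of a row refers to the annotated sequence, not to the turtle. The seeds of miR-23-3p and miR-27-3p shared 6 of 7 bases and differed by U7G (miR-23b-3p to miR-27b-3p, positions counted from 1 at the 5′ end), while the seed GGCUCAG of miR-24-3p belonged to neither. Of the 41 rows, 11 carried the seed UCACAGU, 9 the seed UCACAUU and 4 the seed GGCUCAG. The most counted row of miR-27b, efu-miR-27b, held the 21 bases of mmu-miR-27b-3p with a base added in front and AC added at the end. The base in front moves its nominal seed by 1 base. The same holds for chi-miR-24-5p against hsa-miR-24-1-5p. Of the miR-24-5p rows, 5 carried the nominal seed UGCCUAC and 5 carried GCCUACU. miR-23a-3p differed from miR-23b-3p only by A19U, and miR-27a-3p from miR-27b-3p only by U19C, both outside the seed.

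Many rows described the same molecule. The 41 rows held only 24 distinct sets of counts over the libraries, and 8 rows had fewer than 10 counts in every library. Rows with a stretch of 16 or more bases in common, on the same or the opposite strand, were joined into sequence groups, in which the most counted row stands for the others. The members then formed 8 sequence groups of 973 in the table, 7 of them with at least 10 counts. They were miR-27-3p with 10 rows, miR-23-3p with 11, miR-24-3p with 4, miR-24-5p with 10, miR-23b-5p with 2, a miR-27c-3p pair, and the mouse and opossum versions of miR-27b-5p as single rows. A short row did not always take the reads of the longer row that contains it. With 19 bases, sha-miR-24 had the same counts as hsa-miR-24-3p, and with 16 bases mdo-miR-24-3p had 73.0%, 71.8% and 71.2% of them at 26, 29 and 32 °C. By contrast cfa-miR-23b, the first 19 bases of mmu-miR-23b-3p, had 2.38%, 2.12% and 3.39% of its counts.

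The counts followed some species versions and almost missed others. The first 17 bases of the 5p arm of miR-24-1 were alike in the human and the anole lizard row, and in an alignment without gaps the later bases, in capitals, differed. With a gap allowed, the anole row differed from the human miR-24-1 row only by an inserted C.

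hsa-miR-24-1-5p: ugccuacugagcugauaucagu

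aca-miR-24-1-5p: ugccuacugagcugauaCUCAGu

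hsa-miR-24-2-5p: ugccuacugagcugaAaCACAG

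The human miR-24-1-5p row had 54, 40 and 23 counts at 26, 29 and 32 °C, and the anole row had 2, 1 and 1. The version of the other copy, hsa-miR-24-2-5p, had 1, 0 and 0 counts. The miR-24-1-5p row therefore held 98.2% of the counts of both human rows at 26 °C, with an exact Clopper-Pearson lower limit of 90.3%. With 0 counts of the miR-24-2-5p row in the warmer libraries, the lower limit of that share was 91.2% at 29 °C and 85.2% at 32 °C. A turtle miR-24-2-5p whose bases differ from the human row could be missed in the same way as the anole row was, so these shares describe rows and not gene copies. The same held for the 5p arm of miR-27b, where the mouse row had 718, 821 and 651 counts and the opossum row mdo-miR-27b-5p, with U11C, had 2, 1 and 1. For miR-23b-3p the platypus row oan-miR-23b-3p, with U18A, had 2, 0 and 2 counts.

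A row of the opposite strand had nearly the same counts as miR-24-3p. In mammals miR-3074 is annotated on the opposite strand of the miR-24-1 gene, and the stretch in which both rows are reverse complements is in capitals.

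hsa-miR-24-3p: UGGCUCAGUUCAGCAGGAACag

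hsa-miR-3074-5p: GUUCCUGCUGAACUGAGCCAg

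The stretch spans 20 bases. hsa-miR-3074-5p had 2033, 2411 and 2495 counts at 26, 29 and 32 °C, which was 99.4%, 99.4% and 98.9% of the counts of hsa-miR-24-3p. The catfish row ipu-miR-7565 shared 19 bases of the same stretch and had 28, 30 and 39 counts. On the 5p side, mmu-miR-3074-1-3p had 11, 10 and 5 counts against 54, 40 and 23 of chi-miR-24-5p. The use of strand in the counting was not given in the sources used here, so reads of miR-24 and of miR-3074 cannot be told apart in these rows.

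miR-27b-3p was by far the most abundant member at every temperature. Its row efu-miR-27b had 26690, 30680 and 26549 counts at 26, 29 and 32 °C, or 2855, 3188 and 2762 CPM (the count scaled by the column total of its library, where 1 count is about 0.1 CPM). It ranked 20 of 329 sequence groups of known miRNAs in each library. miR-24-3p (hsa-miR-24-3p) followed with 2045, 2426 and 2523 counts, or 219, 252 and 262 CPM, at ranks 48, 46 and 44. miR-23b-3p (ssa-miR-23b-3p) had 1071, 1628 and 1146 counts, or 115, 169 and 119 CPM, at ranks 61, 51 and 56. By column totals the 29 °C library was highest in miR-27b-3p and miR-23b-3p, and the 26 °C library was lowest in miR-24-3p. With trimmed-mean (TMM) factors the log2 ratio of miR-27b-3p for 32 over 29 °C was -0.01 (-0.03 to 0.01). Its order between those libraries thus depended on the scaling.

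Below these stood miR-23a-3p (efu-miR-23a) with 730, 830 and 807 counts and the passenger strand miR-27b-5p with 718, 821 and 651. At 26 °C their levels of 78.1 CPM (72.5 to 84.0) and 76.8 CPM (71.3 to 82.6) did not differ beyond counting error. miR-27a-3p (bta-miR-27a-3p) had 596, 580 and 621 counts and miR-27d (ccr-miR-27d) 612, 582 and 575. Those neighbours also overlapped at 26 °C, with 63.8 CPM (58.7 to 69.1) and 65.5 CPM (60.4 to 70.9). All rows of the remaining letters and arms were under 12 CPM in every library. The most counted row of each letter and arm among them was miR-27c (xtr-miR-27c) with 83, 93 and 107 counts, miR-27e (dre-miR-27e) with 60, 67 and 84, miR-24-5p (chi-miR-24-5p) with 54, 40 and 23, miR-24b (xtr-miR-24b) with 18, 26 and 27, miR-23b-5p (cgr-miR-23b-5p) with 17, 24 and 13 and ola-miR-24b-5p with 0, 0 and 1. A further row of miR-27c with a sequence group of its own, dre-miR-27c-3p, had 46, 47 and 32 counts. Counts of different sequences carry no correction for how well each was captured, so an order of levels between miRNAs is an order of counts.

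**Figure D1:**
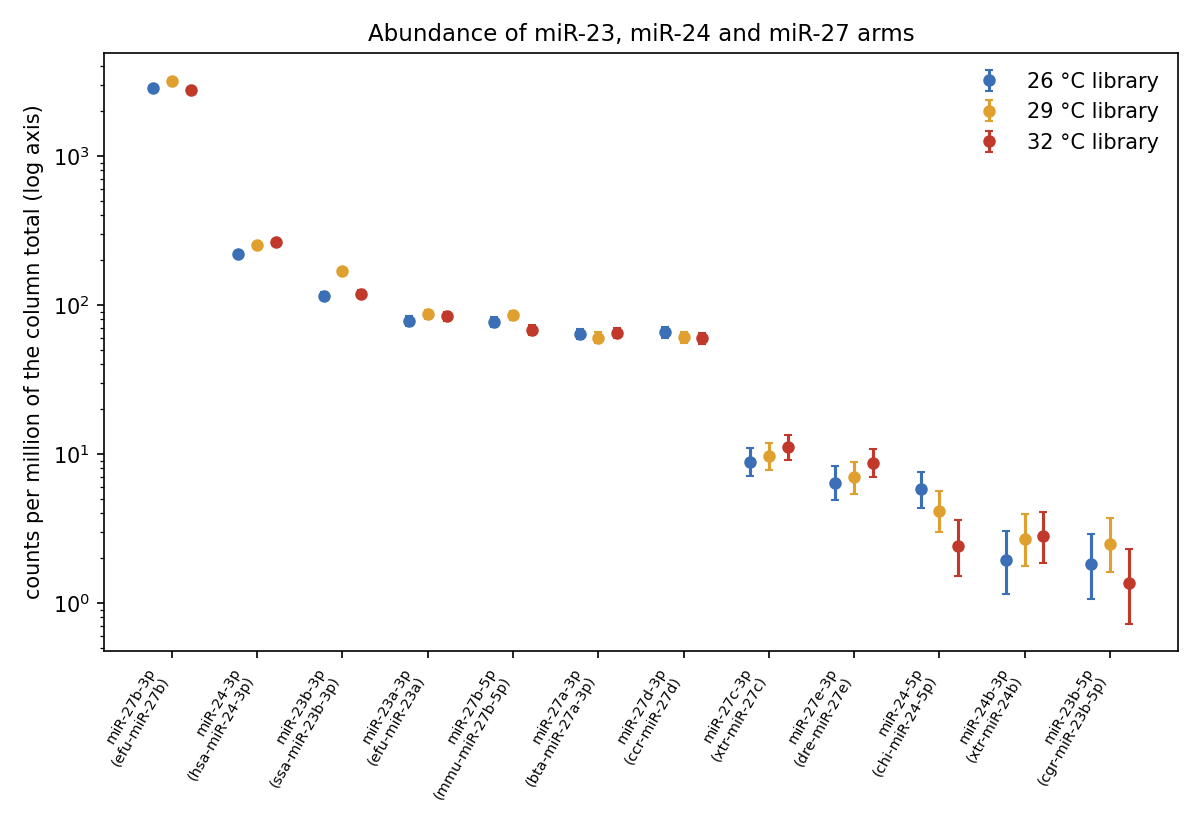
CPM (count scaled by the column total, log axis) for the most counted row of each miRNA and arm with at least 10 counts in a library, with 95% exact counting intervals, in the 26, 29 and 32 °C libraries (1 library each). miR-27b-3p lies between 2762 and 3188 CPM, miR-24-3p between 219 and 262, and miR-24-5p is lower in each warmer library.

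The lesser letters of miR-27 were near-copies of miR-27b, printed here with the bases that differ from mmu-miR-27b-3p in capitals.

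hsa-miR-27a-3p: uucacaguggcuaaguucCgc

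ccr-miR-27d: uucacaguggcuaaguucuUc

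dre-miR-27e: uucacaguggcuaaguucAgUg

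xtr-miR-27c: uucacaguggcuaaguucCAc

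dre-miR-27c-3p: uucacaguggUuaaguucugc

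The row of miR-27a, with U19C, had 2.23%, 1.89% and 2.34% of the counts of mmu-miR-27b-3p at 26, 29 and 32 °C, and the row of miR-27d, with G20U, had 2.29%, 1.90% and 2.17%. The zebrafish row dre-miR-27c-3p, with C11U in the middle of the strand, had 0.172%, 0.153% and 0.121%. The row of miR-27e had 60, 67 and 84 counts at 26, 29 and 32 °C. Those were also the counts of ola-miR-27d-3p, which is the first 18 bases of mmu-miR-27b-3p without a difference. The counts of the miR-27e row thus do not show that its differing bases were read. Whether reads were allowed to match with a mismatch was not given in the sources used here, so the part that reads of miR-27b have in these counts was not tested. miR-23a-3p stood differently to its paralog, with 69.4%, 51.7% and 72.1% of the counts of mmu-miR-23b-3p.

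Between 32 and 26 °C, the incubation temperatures furthest apart, the passenger strand miR-24-5p was lower in the 32 °C library while the main strand miR-24-3p was slightly higher. chi-miR-24-5p had 23 counts at 32 °C and 54 at 26 °C, which gave a log2 ratio of CPM of -1.27 (95% exact conditional interval -2.04 to -0.54). hsa-miR-24-3p had 2523 counts at 32 °C and 2045 at 26 °C, with a log2 ratio of 0.26 (0.18 to 0.35), or 0.48 with trimmed-mean (TMM) factors. miR-27b-3p stood at -0.05 (-0.07 to -0.02), which became 0.17 with TMM factors, so no direction is given for it. miR-23b-3p had a log2 ratio of 0.06 (-0.06 to 0.18) and miR-23a-3p of 0.10 (-0.04 to 0.25), both with intervals that included equality. With TMM factors these became 0.27 (0.15 to 0.39) and 0.32 (0.17 to 0.47), and with median-of-ratios size factors 0.22 (0.10 to 0.34) and 0.27 (0.12 to 0.41), so whether they exceeded counting error depended on the scaling. A call needed a ratio of 2-fold or more, an interval that excluded equality, and 10 or more counts in at least 1 of the libraries compared. Of the members 1 of 7 sequence groups was called lower, miR-24-5p, against 18.9% of all 371 sequence groups. The same call fell on 4 of 33 member rows, all miR-24-5p, against 13.3% of 814 rows. None of the 7 groups was called higher, against 6.47% of all groups. The median log2 ratio was -0.18 over the 7 member groups, beside -0.23 over all 371. By rows the medians were 0.05 over the 33 member rows and -0.13 over all 814.

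By column totals, the order of miR-24-5p, lower in each warmer library, was also that of the kidney miRNAs miR-192 and miR-194. Lower ratios were common, in 195 of 371 sequence groups for 29 over 26 °C and 237 of 371 for 32 over 29 °C. The share of all groups with the whole order was not computed. For 29 over 26 °C the interval of miR-24-5p included equality, at -0.47 (-1.10 to 0.14). miR-192 (ola-miR-192-5p) had 38237, 31766 and 25229 counts, and miR-194 (mmu-miR-194-5p) 7229, 7058 and 6899. The log2 ratio of miR-194 for 32 over 26 °C was only -0.11 (-0.16 to -0.06). TMM factors raised that comparison by 0.21, so the order of miR-194 depended on the scaling. Of the muscle miRNAs, miR-206 (mdo-miR-206) had the same order with 766, 528 and 440 counts, while miR-1 (gga-miR-1b-3p) had 36, 58 and 30 and miR-133 (dme-miR-133-3p) 573, 505 and 534. The summed level of the 3 kidney miRNAs listed, miR-192, miR-194 and miR-204, was 4863, 4034 and 3342 CPM, with miR-204 at 0, 0 and 1 counts. The sum of the 3 striated muscle miRNAs, miR-1, miR-133 and miR-206, was 147, 113 and 104 CPM. Their part in the result was not tested. In such whole tissue, fewer cells of a type and less RNA per cell cannot be told apart.

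Between 29 and 26 °C, miR-23b-3p had the highest ratio of the 3p strands, although it stayed under 2-fold. ssa-miR-23b-3p had 1628 counts at 29 °C and 1071 at 26 °C, so that its log2 ratio was 0.56 (0.45 to 0.67). Its partners had lower log2 ratios, at 0.20 (0.12 to 0.29) for miR-24-3p and 0.16 (0.14 to 0.18) for miR-27b-3p. The paralogs miR-23a-3p at 0.14 (-0.00 to 0.29) and miR-27a-3p at -0.08 (-0.25 to 0.09) had intervals that included equality, although that of miR-23a-3p, at 0.16 (0.02 to 0.31), did not with TMM factors. miR-24-5p, with 40 counts at 29 °C and 54 at 26 °C, stood at -0.47 (-1.10 to 0.14). Of 7 member groups 0 were called in either direction, against 15.1% of all 371 groups. The median log2 ratio was 0.16 over the member groups and -0.03 over all groups.

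Among white blood cell miRNAs, miR-223 and miR-142 were also higher in the 29 °C library. Their list, miR-223, miR-142 and miR-150, had a summed level of 52.2, 98.6 and 49.8 CPM at 26, 29 and 32 °C, with all 3 above 3 counts in each library. For 29 over 26 °C hsa-miR-223-3p stood at 1.03 (0.85 to 1.21) in log2, and miR-223 carried most of the sum. miR-142 (aca-miR-142-3p) had a log2 ratio of 0.67 (0.25 to 1.10). For miR-150 the ratio was 0.18 (-0.44 to 0.81), which included equality. The part of these cells in the level of miR-23b-3p was not tested. The endothelial list, miR-126, miR-221 and miR-222, had a summed level of 9871, 9951 and 9342 CPM, and in log2 its most counted row, oha-miR-126-5p, stood at 0.02 (0.01 to 0.04) for 29 over 26 °C and at -0.17 (-0.19 to -0.16) for 32 over 26 °C. The other members stood higher for 32 over 26 °C, at 0.29 (0.25 to 0.34) for bta-miR-221 and 0.39 (0.35 to 0.44) for gga-miR-222a. TMM factors raised ratios for 32 over 26 °C by 0.21, which exceeds the size of the ratio of miR-126, so no direction is given for miR-126. The tissue, which the labels also name gonad, was checked against its own markers as well. The gonad miRNA miR-202 and the kidney miRNAs miR-192 and miR-194 were present in every library, while the listed kidney miRNA miR-204 had only 0, 0 and 1 counts. miR-202 had 802, 1018 and 327 CPM and the liver miRNA miR-122 had 602, 147 and 175. The red cell list of miR-451 and miR-144 summed to 5.24, 2.08 and 2.81 CPM at 26, 29 and 32 °C. Its members did not move together, since hsa-miR-451a had 44, 9 and 25 counts and dre-miR-144-5p had 5, 11 and 2. In log2, the 29 °C library was lower than the 26 °C library in miR-451, by -2.33 (-3.55 to -1.28). The interval of miR-144 in that comparison, 1.10 (-0.55 to 2.97), included equality. In the nervous system list miR-9 had 1, 0 and 2 counts, and no row was found for miR-124.

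Between 32 and 29 °C, miR-23b-3p was lower in the 32 °C library. It had 1146 counts at 32 °C and 1628 at 29 °C, and its log2 ratio of -0.50 (-0.62 to -0.40) became -0.31 with TMM factors. miR-27b-3p stood at -0.21 (-0.23 to -0.18), which TMM factors brought to -0.01, and miR-27b-5p at -0.33 (-0.48 to -0.18), which with the same factors was -0.14 (-0.29 to 0.01). miR-24-3p had a log2 ratio of 0.06 (-0.02 to 0.14) and miR-24-5p, with 23 against 40 counts, of -0.80 (-1.60 to -0.02). With TMM factors miR-24-3p stood at 0.26 (0.17 to 0.34) and miR-24-5p at -0.60 (-1.41 to 0.18), so the scaling decided on which side of equality these intervals lay. Of the 7 member groups 0 were called, against 18.3% of all 371 groups. Member groups had a median of -0.50, which was the value of miR-23b-3p, and all groups of -0.21. By rows the order was the reverse, with medians of -0.04 over 33 member rows and -0.18 over all 807 rows. The 3 comparisons share libraries and are not independent of each other.

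**Figure D2:**
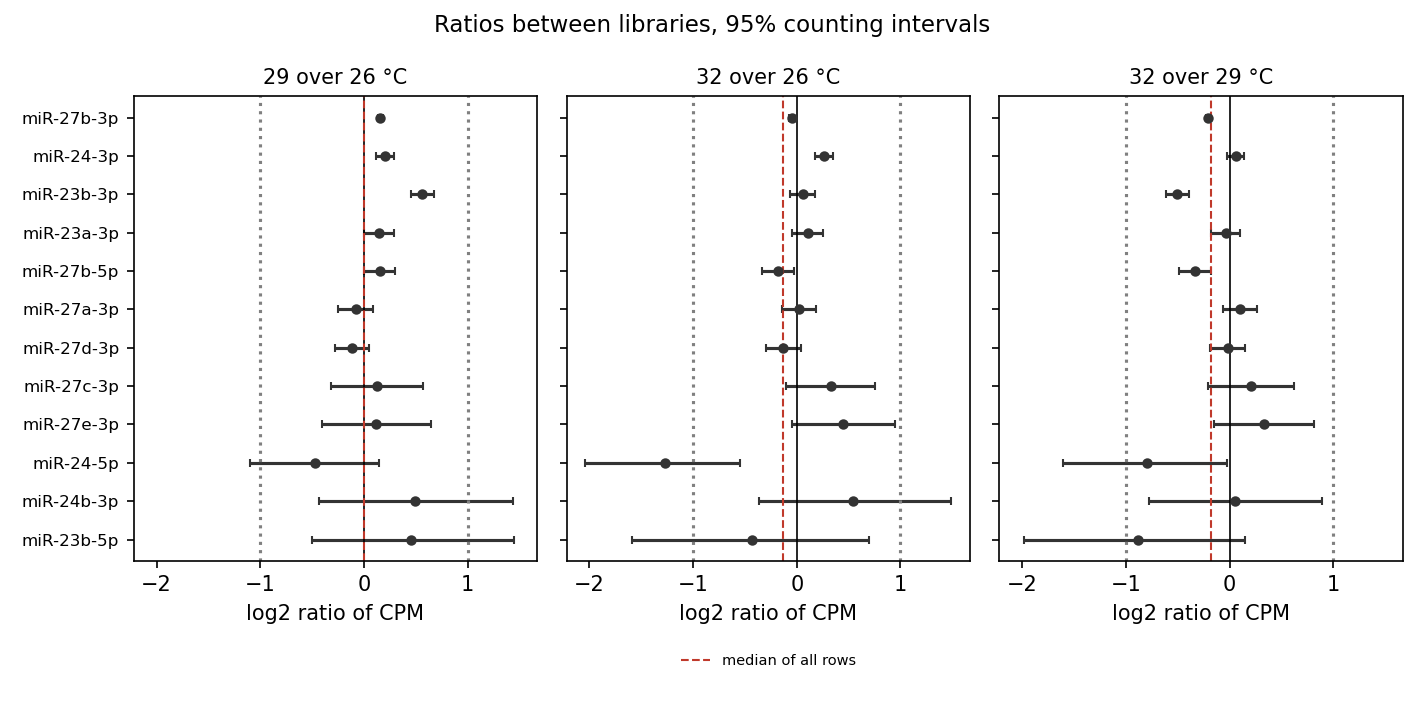
Log2 ratios of CPM with 95% exact intervals for counting error, for 29 over 26, 32 over 26 and 32 over 29 °C (1 library per temperature), with dotted lines at 2-fold and a dashed line at the median of all rows. Only miR-24-5p lies beyond 2-fold with an interval that excludes equality, at -1.27 for 32 over 26 °C, while miR-23b-3p stands at 0.56 for 29 over 26 °C.

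Cluster partners can be set against each other within a library, where no scaling enters, although the shares depend on which rows stand for a miRNA. The row of miR-24-3p can hold counts of both copies and of miR-3074, so its shares and odds need not be those of 1 cluster. Among the most counted 3p strands of the 3 miRNAs, miR-27 took 89.5% of the counts at 26 °C (89.2% to 89.9%), 88.3% at 29 °C (88.0% to 88.7%) and 87.9% at 32 °C (87.5% to 88.2%). miR-24 took 6.86%, 6.98% and 8.35%, and its interval of 8.04% to 8.67% at 32 °C lay above those of the cooler libraries. miR-23 took 3.59%, 4.69% and 3.79%, highest at 29 °C with an interval of 4.47% to 4.91%. With all rows of each miRNA summed, which counts some reads more than once, the shares at 26 °C were 10.8% for miR-23, 81.1% for miR-27 and 8.09% for miR-24, and with the median row of each sequence group 23.6%, 19.3% and 57.2%.

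miR-27b-3p exceeded its cluster partner miR-23b-3p by factors of 24.9, 18.8 and 23.2 at 26, 29 and 32 °C. The odds of miR-23b-3p to miR-27b-3p were higher in the 29 °C than in the 26 °C library, with a log2 odds ratio of 0.40 (95% exact conditional interval 0.29 to 0.52), and lower in the 32 °C than in the 29 °C library, at -0.30 (-0.41 to -0.19). Between 32 and 26 °C it was 0.11 (-0.02 to 0.23). miR-24-3p to miR-27b-3p went another way, with log2 odds ratios of 0.05 (-0.04 to 0.13) for 29 over 26 °C and 0.31 (0.22 to 0.40) for 32 over 26 °C. The partners thus did not keep constant proportions within counting error, and the spread between embryos of 1 temperature cannot be seen in pooled libraries.

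The proportions of the a and b rows differed between the miRNAs. miR-23b-3p held 59.5% of miR-23a and miR-23b counts at 26 °C (57.2% to 61.7%), 66.2% at 29 °C (64.3% to 68.1%) and 58.7% at 32 °C (56.5% to 60.9%). miR-27b-3p held 97.8% of miR-27a and miR-27b counts at 26 °C (97.64% to 97.99%), 98.1% at 29 °C and 97.7% at 32 °C. The log2 odds ratio of miR-23b to miR-23a was 0.42 (0.23 to 0.60) for 29 over 26 °C and -0.05 (-0.24 to 0.14) for 32 over 26 °C. For miR-27b to miR-27a it was 0.24 (0.07 to 0.41) and -0.07 (-0.23 to 0.10). Both b rows thus stood higher against their a rows in the 29 °C library than at 26 °C. The part that reads of a b copy have in the counts of an a row was not tested, so these proportions describe rows. miR-23a-3p and miR-27a-3p were close in counts, with ratios of 1.22, 1.43 and 1.30 at 26, 29 and 32 °C.

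**Figure D3:**
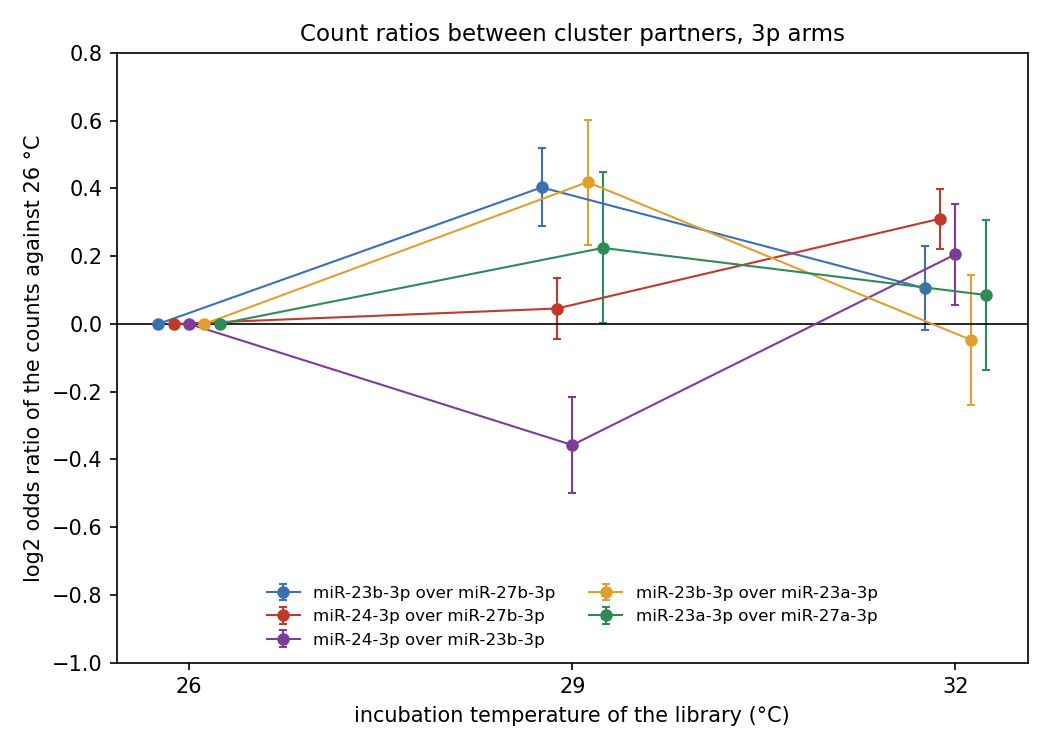
Log2 odds ratios of the counts of 2 miRNAs against the 26 °C library (set to 0), with 95% exact intervals, plotted against incubation temperature for 5 pairs of 3p strands (1 library per temperature, points shifted sideways for legibility). miR-23b-3p stands higher against both miR-27b-3p (0.40) and miR-23a-3p (0.42) at 29 °C, and miR-24-3p higher against miR-27b-3p (0.31) at 32 °C.

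The 3p strand dominated all 3 hairpins. The 5p strand made up 2.62%, 2.61% and 2.39% of the counts of miR-27b at 26, 29 and 32 °C and 1.56%, 1.45% and 1.12% of those of miR-23b. In miR-24 it made up 2.57% at 26 °C (1.94% to 3.34%), 1.62% at 29 °C (1.16% to 2.20%) and 0.903% at 32 °C (0.574% to 1.35%). Its share was lower in each warmer library, and the intervals at 32 and 26 °C did not overlap.

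For 32 over 26 °C, the log2 odds ratio of 5p to 3p counts was -1.53 (-2.31 to -0.80) in miR-24, -0.13 (-0.29 to 0.02) in miR-27b and -0.48 (-1.65 to 0.65) in miR-23b. Hairpins whose 5p and 3p strands each reached 30 counts in all numbered 57 by name, and 50 when those with the same pair of sequence groups were counted once. Across these 50 the 5p to 3p odds ratio was at least 2-fold lower with an interval excluding equality in 8.0%, miR-24 among them, and 3 hairpins were as far in the higher direction. The median was -0.06, and miR-24 had the lowest value.

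A lower minor strand was not particular to miR-24. With the less counted strand of each hairpin set over the more counted one, whichever arm it was, 34 of 50 hairpins were below equality for 32 over 26 °C, and the median log2 odds ratio was -0.16. The minor strand was called lower in 12% of hairpins, which were let-7c, miR-103a, miR-122, miR-148a, miR-15c and miR-24, and higher in 1, miR-301a. let-7c and miR-15c stood lower than miR-24 on this measure. The 3p strand of let-7c had 27 counts at 32 °C and 77 at 26 °C, beside 16978 and 15045 of its 5p strand, and the 3p strand of miR-15c had 62 and 218, beside 435 and 508. For 29 over 26 °C miR-24 stood at -0.68 (-1.31 to -0.06) and for 32 over 29 °C at -0.85 (-1.67 to -0.07), both short of 2-fold, and 2.0% of hairpins were past it in either direction in each of these comparisons.

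The 5p to 5p comparison with the cluster partner used the same miR-24-5p counts, so it gave no separate support. The log2 odds ratio of miR-24-5p to miR-27b-5p was -1.09 (-1.88 to -0.34) for 32 over 26 °C. Against miR-23b-5p, with 13 counts at 32 °C and 17 at 26 °C, it was -0.84 (-2.22 to 0.56). Because miR-24-3p can come from both copies, the strand ratio of miR-24 need not be that of 1 hairpin.

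**Figure D4:**
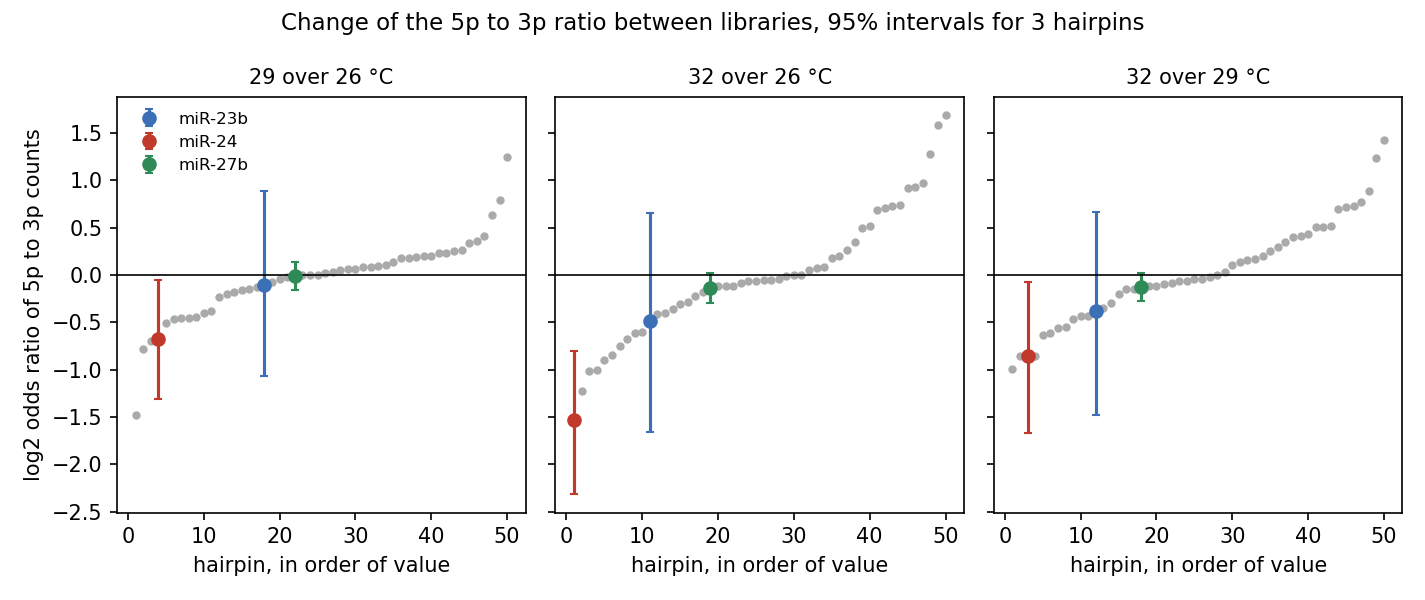
Log2 odds ratios of 5p to 3p counts between libraries for 50 hairpins in order of value (grey), with miR-23b, miR-24 and miR-27b in colour with 95% exact intervals (1 library per temperature). miR-24 is the lowest point for 32 over 26 °C at -1.53, while miR-27b stays at -0.13.

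The named miRNAs whose levels followed the members most closely were sought among 95 other sequence groups with at least 100 counts in each library, by the Euclidean distance of log2 CPM centred on the mean of the 3 libraries. With 3 points per profile such likeness is a description. Nearest to miR-23b-3p was hsa-miR-214-5p with 139, 193 and 151 counts at a distance of 0.117, beside a median of 0.485, followed by gga-miR-205b, cgr-miR-214-3p, ola-miR-143 and aca-miR-99b-5p. Nearest to miR-24-3p was bfl-miR-125b with 12901, 15261 and 15762 counts at 0.010, beside a median of 0.309, followed by mmu-miR-135a-5p, oan-miR-32-3p, aca-miR-10c-5p and hsa-let-7d-5p. Nearest to miR-27b-3p was dre-miR-152 with 561, 614 and 547 counts at 0.050, beside a median of 0.255, followed by mdo-miR-143-5p, hsa-let-7f-5p, bta-miR-199a-5p and ola-miR-143. For miR-27b-5p the nearest was gga-miR-15a with 128, 158 and 119 counts at 0.080, followed by aca-miR-99b-3p, ggo-miR-365a, mmu-miR-126a-5p and bta-miR-199a-5p.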

How the data were processed

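The deposited table held raw read counts per row and library, and beside them TPM, per the file headers. Each deposited TPM value was the count scaled to a common column total, with no length term. FastQC and Bowtie are named in the submitters' processing notes. The sources used here do not state versions, genome build, mismatches, or how multiple matches and strand were handled. RNA of 3 samples was pooled per library, per the labels' protocols. Columns were matched to temperatures by name. Coordinates are not given, since no genome entered the work.

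Counts were divided by column totals, where 1 count is 0.107, 0.104 and 0.104 CPM at 26, 29 and 32 °C. Ratios carry exact conditional (Clopper-Pearson) intervals, and odds ratios Fisher's conditional estimate. With 1 library per temperature no test between temperatures was made. Sequence groups joined rows with 16 bases in common on the same or opposite strand, by single linkage. Rows without an arm in their name took the arm of the most similar row. The rule for named rows took the most counted row of each letter and arm, the marker miRNAs and the 5 nearest profiles, and further rows were named for their sequence after their counts were seen. Members and lists were chosen with earlier results of these data known. The computation of ratios and their intervals was checked on simulated counts with known folds. That of odds ratios and their intervals was only compared with the scipy routine on a few fixed example counts. Alternatives used TMM factors of edgeR 4.0.16 and size factors of DESeq2 1.42.0, in R 4.3.3, and other calculations scipy 1.17.1, numpy 2.4.6 and pandas 2.3.3 in Python 3.11.15. Figures were drawn with matplotlib 3.10.9.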

Additional observations from a re-analysis of the deposited data

How the results depend on the processing

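No paired analysis was possible because the groups held 1 library each. The counts of members called kept to the main value under TMM factors, median-of-ratios size factors, a total that leaves out the most abundant row, the sequence-group total (added after seeing the data), a minimum of 50 counts or none, and groups joined by containment. Other settings moved them. With every row counted separately 4 of 33 rows were lower for 32 over 26 °C in place of 1 of 7 groups, against 13.3% of all 814 rows. With a 1.5-fold threshold 1 of 7 groups, miR-24-5p, was lower for 32 over 29 °C in place of 0. With TMM factors its interval included equality, at -0.60 (-1.41 to 0.18). The share of all groups called at 1.5-fold is not given here, so that call has no background beside it. No strand ratio left its interval with another row, the median row or log2(CPM + 1). TMM factors shifted ratios for 32 over 26 °C by 0.21 and for 32 over 29 °C by 0.20, and over all 4 scalings 5 of 36 log2 ratios of named rows changed sign, none larger than 0.18. Shares among cluster partners depended on the rows taken. With all rows summed, miR-23 held 10.8%, 13.0% and 11.4% at 26, 29 and 32 °C, miR-27 81.1%, 78.8% and 78.9%, and miR-24 8.09%, 8.15% and 9.69%. With the median row of each group, which mixes letters and near-copies, they were 23.6%, 23.8% and 22.8% for miR-23, 19.3%, 16.6% and 16.2% for miR-27, and 57.2%, 59.6% and 61.0% for miR-24. The counts of miR-24-5p and miR-23b-5p were low, so their intervals were wide.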
